A study of Arabidopsis thaliana with 12 samples.

Results

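The 5 genes described here, AT1G62500, AT2G10940, AT5G48490, AT4G33550 and AT2G37870, belong to the lipid transfer protein family of Arabidopsis thaliana. They were taken by name, each through the only probe set assigned to it alone (265117_at, 265400_at, 248683_at, 253344_at and 266098_at), out of 13333 genes of the RefSeq table with a probe set of their own and 22746 probe sets that are not controls. The genes were chosen by their values on these same arrays: AT1G62500 by its change along the stem, AT2G10940 and AT5G48490 by their change between genotypes at the base. No comparison is given as the ground for AT4G33550 and AT2G37870, so every comparison of them is treated as used. Values that took part in the choice are given below as a description without a p-value.

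Lipid transfer proteins are small secreted proteins whose fold is held together by a conserved set of cysteines joined in disulfide bonds. The fold encloses a hydrophobic cavity that can hold fatty acids and other lipids. The family is known for roles in the build-up of cuticle wax and suberin, in seed storage and in defence signalling, and in the stem many members are made in the epidermis and in the outer tissues. The sources used here give no finer role for any of the 5 genes.

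Stem fragments 0.5 cm long came from wild-type Columbia plants and from the wox4-1 mutant, which carries a mutation in WOX4, a homeobox gene known to promote the cambium. They were cut at the stem base or in the first internode (1.5 to 2.0 cm higher than the last leaf of the rosette), from stems 15 to 20 cm tall whose first internode measured at least 3.5 cm. All plants were 49 to 58 days old and had grown for 3 weeks in short days (8 h light) before long days (16 h light). The 4 groups are wild type base, wox4-1 base, wild type internode and wox4-1 internode, each with 3 Affymetrix arrays, and each array is labelled a biological replicate made of a pool of 13 to 17 stems. The labels give the Columbia ecotype for the wild-type arrays only.

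Values are log2 expression values as deposited, and a change of 1 is a doubling of signal. The median of an array was 5.56 to 5.71, no value was under 2.29, and replicates correlated at r 0.992 to 0.997 within groups. Between arrays of different groups r reached 0.996. On both wild-type replicate 2 arrays many probe sets stood apart. At the base 98 probe sets were over 1 log2 unit higher on replicate 2 than on both other arrays of its group and 1 was lower, and in the internode 102 were higher and 1 lower. On the other 10 arrays such probe sets numbered 0 to 43 in either direction. For the actin control, signal at the 3′ end exceeded that at the 5′ end by log2 3.63 on wox4-1 internode replicate 2 and by 2.58 to 3.17 on the other 11 arrays. For the GAPDH control this excess was log2 2.05 on wox4-1 internode replicate 2 and 0.91 to 1.27 on the other 11 arrays. No probe set carried the name WOX4, so the genotype labels were not checked with it. Of the cell type markers listed for a check of the tissue, the cambium genes MOL1, CLE41 and CLE44 were measured by name (log2 6.12 to 9.69), and the stomatal genes SPCH (2.86 to 3.22) and FMA (3.65 to 4.29) lay near the low end of the scale. MOL1, whose receptor kinase limits cambium activity, rose at the base in wild type (log2 0.62, SE 0.11, limma adjusted p 0.00159) and in wox4-1 (0.51, SE 0.11, limma adjusted p 0.00507). CLE41, for a peptide signal to the cambium, rose there by 0.27 and 0.32 (SE 0.09, limma adjusted p 0.0486 and 0.0194), and CLE44, for the same peptide, rose at the wox4-1 base over the wild type base by 0.48 (SE 0.11, limma adjusted p 0.0275). The markers did not all move together. Along the stem CLE44 changed by -0.19 in wild type and 0.17 in wox4-1. Between genotypes at the base MOL1 changed by -0.29 and CLE41 by 0.13, and none of these changes was called. In the comparisons with called markers AT1G62500, AT5G48490 or AT2G10940 were also called, and the part of such markers in those results was not tested. No xylem or phloem marker on the lists had a probe set with its name. In pooled stem fragments, fewer cells of a type and less RNA per cell cannot be told apart.

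AT1G62500 was high at the stem base and low in the internode in both genotypes. At the wild type base it stood at log2 9.23, 9.44 and 9.55, and at the wox4-1 base at 9.61, 9.34 and 9.68. In the wild type internode it stood at 3.32, 3.37 and 3.38, and in the wox4-1 internode at 3.50, 3.78 and 3.79. Every base array was far above every internode array, and the replicates of each group lay close together, with SD of 0.03 to 0.18 (n = 3). The internode means of 3.35 and 3.69 lay at percentiles 18.9 and 27.1 of all probe sets, near the low end of the scale, where arrays hardly tell levels apart. With each array's values raised to at least its 25th percentile, the gene was at least 55.9-fold higher at the base in wild type and at least 56.6-fold higher in wox4-1. As deposited, the log2 changes were 6.05 (SE 0.11) and 5.85 (SE 0.11), the largest positive changes among called probe sets with 1 gene in both comparisons.

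**Figure D1:**
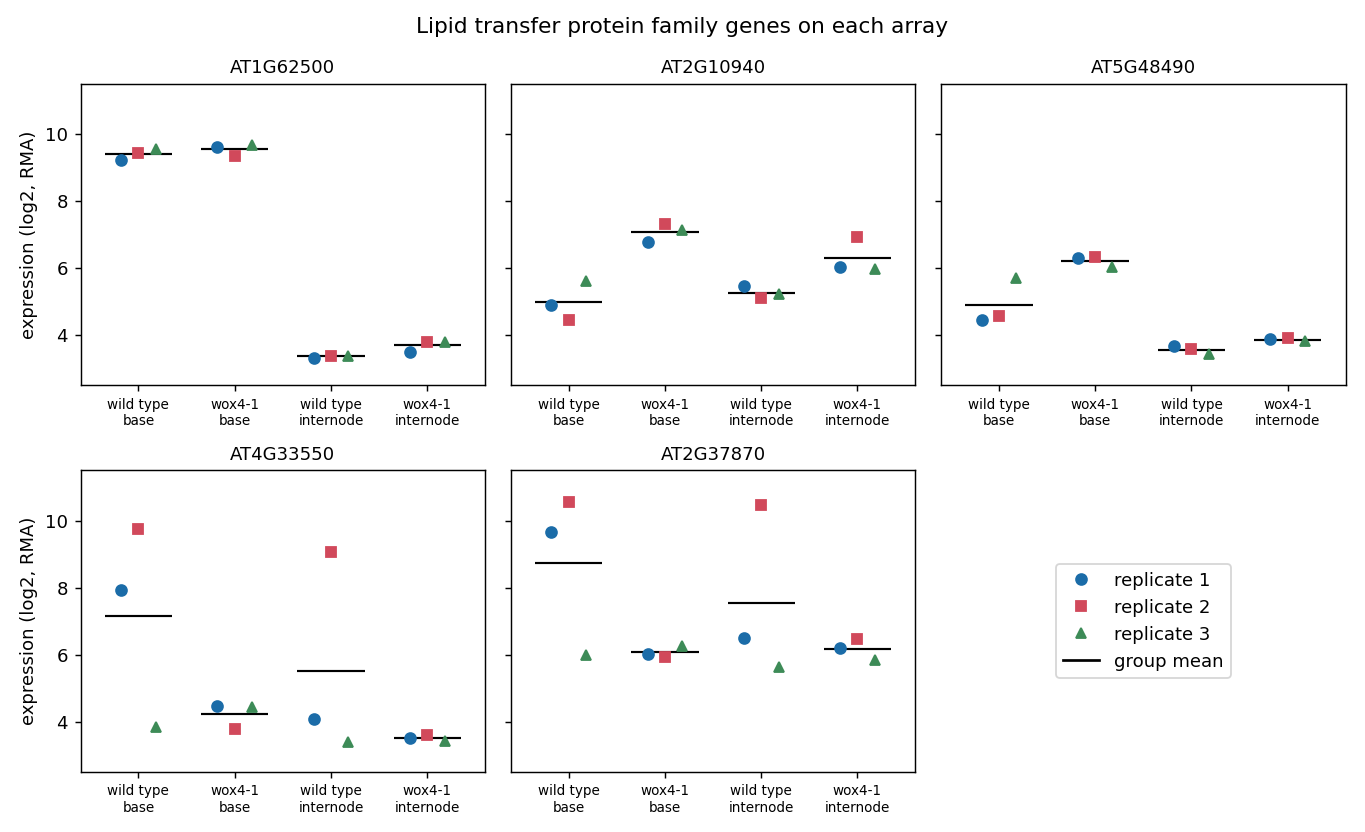
Log2 expression (vertical axis) of each gene on the 12 arrays, by group (horizontal axis), with a point per array, shaped and coloured by replicate number, and a bar at the group mean. AT1G62500 is between 9.23 and 9.68 on all base arrays and between 3.32 and 3.79 on all internode arrays, while AT4G33550 and AT2G37870 are high on wild type base replicates 1 and 2 and on wild type internode replicate 2.

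Between genotypes AT1G62500 differed little. At the base the difference of wox4-1 over wild type was log2 0.14 (SE 0.11, 95% confidence interval -0.11 to 0.38, limma adjusted p 0.513), and the groups overlapped. In the internode it was 0.34 (SE 0.11, interval 0.09 to 0.58). All 3 wox4-1 arrays were higher there than all 3 wild-type arrays, but the test was not passed over all probe sets (limma adjusted p 0.373), and with the floor at the 25th percentile the difference was 0.12. The change along the stem was not shown to differ between the genotypes either, with a difference of -0.20 (interval -0.54 to 0.15, limma adjusted p 0.763).

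The probe sets with 1 gene most like AT1G62500 over the 12 arrays were those of AT1G09750, an aspartyl protease gene (Pearson r 0.994), AT5G13140 (0.994) and DFR (0.993), which encodes dihydroflavonol reductase of anthocyanin synthesis. In all of them the base arrays stood above the internode arrays, and 519 of 22745 other probe sets had an r above 0.9 with AT1G62500. The points share the arrays and fall into a base cluster and an internode cluster, so r mainly records this split.

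AT5G48490 was higher at the base than in the internode in both genotypes, and it was highest at the wox4-1 base. At the wild type base it stood at log2 4.43, 4.56 and 5.69, and at the wox4-1 base at 6.29, 6.32 and 6.02. In the wild type internode it stood at 3.67, 3.57 and 3.43, and in the wox4-1 internode at 3.86, 3.89 and 3.80. The groups did not overlap in any of the 4 comparisons, and wild type base replicate 3 lay nearer to the wox4-1 arrays than the other wild type base arrays did. The ascending order was therefore wild type internode, wox4-1 internode, wild type base and wox4-1 base, in which the internode groups did not differ beyond the test.

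Along the stem AT5G48490 rose by log2 1.33 at the base in wild type (SE 0.24, interval 0.82 to 1.85, limma adjusted p 0.0014) and by 2.36 in wox4-1 (SE 0.24, interval 1.85 to 2.88, limma adjusted p 1.27e-05). These tests share the base arrays with the genotype comparison at the base that led to the gene's choice. In wild type the internode mean lay at percentile 24.0, and with the floor the rise was at least 2.43-fold. Without wild type base replicate 3 the wild-type change was 0.93, still called.

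At the base AT5G48490 was 2.5-fold higher in wox4-1 (log2 1.32, SE 0.24), the comparison in which it was chosen. The call ended when only the base arrays were fitted, with the same change of 1.32, and without both wild-type replicate 2 arrays, where the change was 1.15. In the internode the difference was 0.29 (SE 0.24, interval -0.22 to 0.80, limma adjusted p 0.854). The genotype effect at the base minus that in the internode was 1.03 (interval 0.30 to 1.75), which was not called. Without wild type base replicate 3 it was 1.43 and was called.

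Among probe sets with 1 gene, those most like AT5G48490 over the 12 arrays were LSH5, of the LIGHT SENSITIVE HYPOCOTYLS genes (r 0.979), AT3G43430 (0.975) and AT5G62350 (0.966). Over all probe sets, 165 had an r above 0.9. LSH5 stood at log2 9.02 to 9.12 at the wox4-1 base, at 8.61, 8.61 and 8.92 at the wild type base, and at 8.33 to 8.58 in the internodes. Like AT5G48490, it was nearest to wox4-1 on wild type base replicate 3. Of the family genes on the list described below, AT1G62790 was most like AT5G48490 (r 0.906).

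The values of AT2G10940 separated the genotypes, while base and internode arrays overlapped in both genotypes. At the wild type base it stood at log2 4.90, 4.44 and 5.61, and at the wox4-1 base at 6.78, 7.32 and 7.13. In the wild type internode it stood at 5.46, 5.09 and 5.22, and in the wox4-1 internode at 6.03, 6.92 and 5.95. All 6 wox4-1 arrays were higher than all 6 wild-type arrays. At the base, where the gene was chosen, the difference was log2 2.09 (SE 0.28), or 4.27-fold, the largest positive change among called probe sets with 1 gene.

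The comparison of genotypes in the internode was not the one that led to the choice. There AT2G10940 was 2.06-fold higher in wox4-1 (log2 1.04, SE 0.28, interval 0.44 to 1.65), with all 3 wox4-1 arrays above all 3 wild-type arrays. The difference did not pass the test over all probe sets (limma adjusted p 0.191, unadjusted p 0.00242). Its highest array, wox4-1 internode replicate 2 at 6.92, is the array whose actin and GAPDH controls stood apart, and without that array the difference was 0.73. What the RNA of that array does to this value was not tested.

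Along the stem AT2G10940 changed by log2 -0.27 in wild type (SE 0.28, interval -0.88 to 0.33, limma adjusted p 0.584) and by 0.78 in wox4-1 (SE 0.28, interval 0.18 to 1.38, limma adjusted p 0.0587), and the groups overlapped in both. These comparisons share the base arrays with the genotype comparison at the base that led to the gene's choice. The wox4-1 value lay at the edge of the threshold. It was called at 1.09 without wox4-1 internode replicate 2, and without wild type base replicate 2 or 3 at an unchanged 0.78. In 13 of 20 alternatives it was not called, such as at 0.65 without wox4-1 base replicate 2 and at 0.60 without wox4-1 internode replicate 3. The base effect of genotype minus the internode effect was 1.05 (interval 0.20 to 1.90), which was not called.

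**Figure D2:**
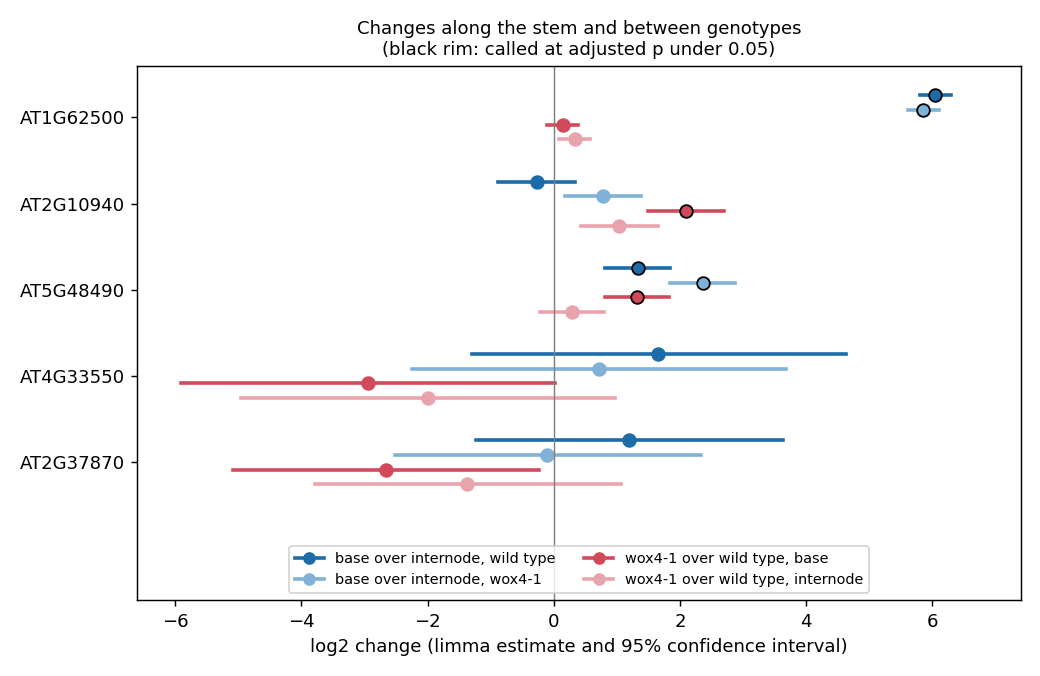
Log2 changes (horizontal axis) of the 5 genes (vertical axis) in the 4 pairwise comparisons, as limma estimates with 95% confidence intervals, with a black rim where the change was called at an adjusted p under 0.05. The intervals of AT4G33550 and AT2G37870 are several log2 units wide, and those of AT1G62500 along the stem lie between 5.61 and 6.30.

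Few probe sets followed AT2G10940 closely. Only 10 probe sets had an r above 0.9 with it, against 519 for AT1G62500. The nearest with 1 gene were AT2G11390 (r 0.940), whose values of 2.88 to 3.23 lie at the low end of the scale, AT2G04570 (0.922) and AT1G16860 (0.921). AT2G04570 rose at the wox4-1 base by log2 0.82 (SE 0.13, limma adjusted p 0.00405), from 4.92 to 5.21 on the wild-type arrays to 5.85 to 6.05 on the wox4-1 arrays. The change of AT1G16860 there was 0.22 (limma adjusted p 0.121).

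AT4G33550 and AT2G37870 were high on the same 3 wild-type arrays, which do not make up a group. AT4G33550 stood at log2 7.93, 9.74 and 3.83 at the wild type base and at 4.07, 9.06 and 3.38 in the wild type internode. In wox4-1 it stood at 4.47, 3.78 and 4.42 at the base and at 3.50, 3.59 and 3.43 in the internode. It was thus high on wild type base replicates 1 and 2 and on wild type internode replicate 2, and between 3.38 and 4.47 on the other 9 arrays.

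AT2G37870 stood at log2 9.65, 10.56 and 6.0 at the wild type base and at 6.50, 10.48 and 5.63 in the wild type internode. In wox4-1 it stood at 6.03, 5.93 and 6.25 at the base and at 6.19, 6.47 and 5.85 in the internode. The same 3 arrays were high, at 9.65 to 10.56, against 5.63 to 6.50 on the other 9.

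The spread between wild-type replicates of these genes was among the widest on the array. For AT4G33550 the highest and lowest array differed 59.9-fold at the wild type base and 51.4-fold in the wild type internode, and its SD of 3.03 and 3.10 ranked as number 6 and number 5 among 22746 probe sets. For AT2G37870 these ranges were 23.7-fold and 28.9-fold, and its SD of 2.42 and 2.59 ranked as number 16 and number 8. In wox4-1 the SD was 0.08 to 0.38 for AT4G33550 and 0.16 to 0.31 for AT2G37870.

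The group means of these genes therefore had wide intervals. The difference of wox4-1 over wild type was log2 -2.94 at the base (interval -5.91 to 0.02) and -2.0 in the internode (interval -4.96 to 0.97) for AT4G33550. For AT2G37870 it was -2.66 (interval -5.09 to -0.24) and -1.37 (interval -3.79 to 1.06). None of these differences was called, and the groups overlapped in each. They also rested on single arrays. Without both wild-type replicate 2 arrays the internode differences were -0.22 and 0.11 and the base differences -1.66 and -1.75, while without wild type base replicate 3 the base differences were -4.61 and -4.03, the second of which was called. Along the stem the changes in wild type were 1.66 (interval -1.30 to 4.63) and 1.2 (interval -1.23 to 3.63). In wox4-1 they were 0.72 and -0.10, and the groups of AT4G33550 did not overlap there. Its 0.72 was called when only the wox4-1 arrays were fitted. By replicate number, base minus internode in wild type was 3.87, 0.67 and 0.45 for AT4G33550 and 3.15, 0.08 and 0.37 for AT2G37870. The base was higher at 3 of 3 numbers for both, but the array titles state no pairing by number. In the fit of the wild-type arrays with the replicate number as a block, the wild-type changes had SE of 0.58 and 0.52 and were not called.

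Over the 12 arrays AT4G33550 and AT2G37870 correlated with r of 0.986, and their deviations from the group means with 0.991. Among probe sets with 1 gene, each was the other's nearest. Next for both came PUB19, a U-box ubiquitin ligase gene known from drought and abscisic acid responses (r 0.964 and 0.952). After PUB19 came SAG29, also called SWEET15, a sugar transporter gene known from senescence and osmotic stress (r 0.963 and 0.949). PUB19 was at 6.70, 7.56 and 7.27 on the 3 arrays named above and at 5.47 to 6.08 on the other 9. SAG29 was at 6.64, 9.98 and 9.02 on them and at 4.62 to 5.10 on the other 9. With these few high arrays an r is set by 3 points. An r above 0.9 was found for 50 probe sets with AT4G33550 and for 33 with AT2G37870.

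**Figure D3:**
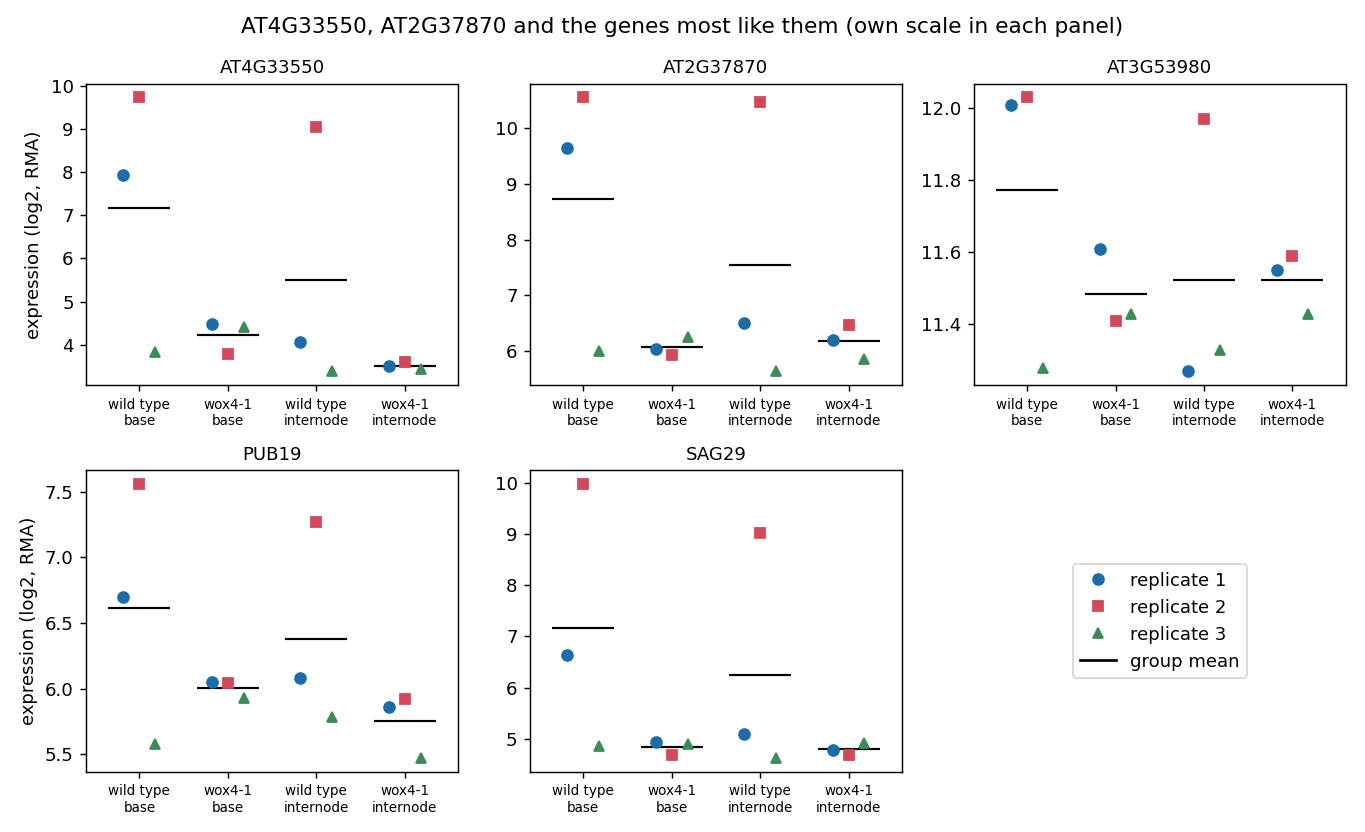
Log2 expression (vertical axis, with its own scale in each panel) of AT4G33550, AT2G37870, the family gene most like them (AT3G53980) and the other genes most like both (PUB19, SAG29) on the 12 arrays by group, with a point per array and a bar at the group mean. In every panel wild type base replicates 1 and 2 and wild type internode replicate 2 are the highest arrays.

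Wild type base replicate 3 divided the 5 genes. It was the highest of its group for AT2G10940 (5.61), AT5G48490 (5.69) and, by a small margin, AT1G62500 (9.55), and the lowest for AT4G33550 (3.83) and AT2G37870 (6.0). Over all arrays the deviations from group means of AT5G48490 correlated with those of AT2G10940 (r 0.62) and were opposed to those of AT4G33550 (-0.597) and AT2G37870 (-0.595).

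Read as counts, 2 of the 5 genes were called higher at the base in wild type, where 9.6% of all probe sets were called higher, and 2 in wox4-1, where 11.4% were. In both genotypes they were AT1G62500 and AT5G48490. Groups did not overlap along the stem for 2 of 5 genes in wild type, beside 39.0% of all probe sets, and for 3 of 5 in wox4-1, beside 38.6%. At the base 2 of 5, AT2G10940 and AT5G48490, were called higher in wox4-1, beside 2.52% of all probe sets, and these were also the 2 whose groups did not overlap, beside 24.9%. These comparisons took part in the choice of the genes. In the internode limma called 0 of 5 between genotypes, beside 0.242% of all probe sets in either direction, and 2 of 5, AT1G62500 and AT2G10940, had an unadjusted p under 0.05. Groups did not overlap for 3 of 5 genes there, beside 14.7% of all probe sets. The internode comparison of genotypes is treated as used in the choice of AT4G33550 and AT2G37870 only. The difference and the average of the genotype effects took part in the choice of all but AT1G62500, so their counts only describe. Limma called the difference for no gene of the 5, beside 0.0044% of all probe sets, and the average as higher for AT2G10940 (log2 1.57, SE 0.20) and AT5G48490 (0.81, SE 0.17), beside 2.89%. The comparisons share arrays: each position comparison has 1 group in common with each genotype comparison.

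Among the other family genes measured by name, the changes were between log2 -0.57 and 0.87 in the 4 comparisons of groups. The remaining genes on the list had no probe set assigned to them alone and were not analysed here. Of 95 other lipid transfer family genes on the list, 41 were measured by name, and 15 of these were under the 25th percentile of all values (log2 3.62) on every array. At the base over the internode 1 of 41 was called higher and 0 lower in wild type (median change 0.01, and 0.01 over all probe sets), and 4 were called higher and 0 lower in wox4-1 (median 0.11, and 0.04 over all). In wox4-1 over wild type 1 was called higher and 0 lower at the base (median 0.13, and 0.02 over all), and 1 higher and 0 lower in the internode (median 0.01, and 0.00 over all). Over all probe sets 9.6%, 11.4%, 2.52% and 0.11% were called higher in the same order, and 10.1%, 13.0%, 2.51% and 0.132% were called lower. These limma counts of 0 lower stand beside 2, 0, 0 and 1 family genes lower at an unadjusted p under 0.05. With each array centred on its median, 11 in place of 4 were called higher at the wox4-1 base over the internode. Centring also moved the median change over all probe sets there from 0.039 to 0.126, and the share of all probe sets called with it is not given here.

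AT3G18280 was the family gene on the list with the largest change along the stem in wild type. It stood at log2 11.43 to 11.54 at the wild type base and 10.47 to 10.77 in the wild type internode, a rise of 0.87 (SE 0.09, limma adjusted p 1.18e-05). In wox4-1 it stood at 11.59 to 11.74 and 11.18 to 11.26, a rise of 0.44 (SE 0.09, limma adjusted p 0.00207). Its internode level was higher in wox4-1 than in wild type by 0.60 (SE 0.09, limma adjusted p 0.0103). That call was lost, leaving 0 of 41 higher, without wild type internode replicate 2, without wox4-1 internode replicate 3, without both wild-type replicate 2 arrays and when only the internode arrays were fitted. It was also the family gene most like AT1G62500 over the 12 arrays (r 0.837), and the groups did not overlap in any of these 3 comparisons.

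The other calls on the list in these comparisons were smaller than log2 0.5. In wox4-1 AT1G62790 (0.47, SE 0.12, limma adjusted p 0.0109), AT5G01870 (0.39, SE 0.10) and AT4G14815 (0.28, SE 0.08) rose at the base, and AT2G27130 rose at the wox4-1 base over the wild type base by 0.32 (SE 0.08, limma adjusted p 0.035). The average of the genotype effects was called higher for 3 of 41, namely AT3G18280 (0.39, SE 0.06), AT2G27130 (0.26, SE 0.06) and AT5G05960 (0.24, SE 0.06). The call of AT2G27130 at the base was lost, leaving 0 of 41 higher, without any of wild type base replicates 1 and 2 and wox4-1 base replicates 1 and 3, and when only the base arrays were fitted.

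AT3G53980 was the family gene most like the pair of AT4G33550 (r 0.904) and AT2G37870 (r 0.916). It stood at log2 11.97 to 12.03 on the 3 wild-type arrays where the pair was high and at 11.27 to 11.61 on the other 9, a far smaller step. The highest SD within a group on the list was 0.94, for AT5G55450 in the wox4-1 internode, and it was over 0.5 in no other gene of the 41. None of the 41 genes reached the wild-type SD of 2.42 to 3.10 of AT4G33550 and AT2G37870. The pair was chosen by values on these arrays, and 15 of the 41 genes were under the 25th percentile on every array. The comparison of spreads is therefore a description only.

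**Figure D4:**
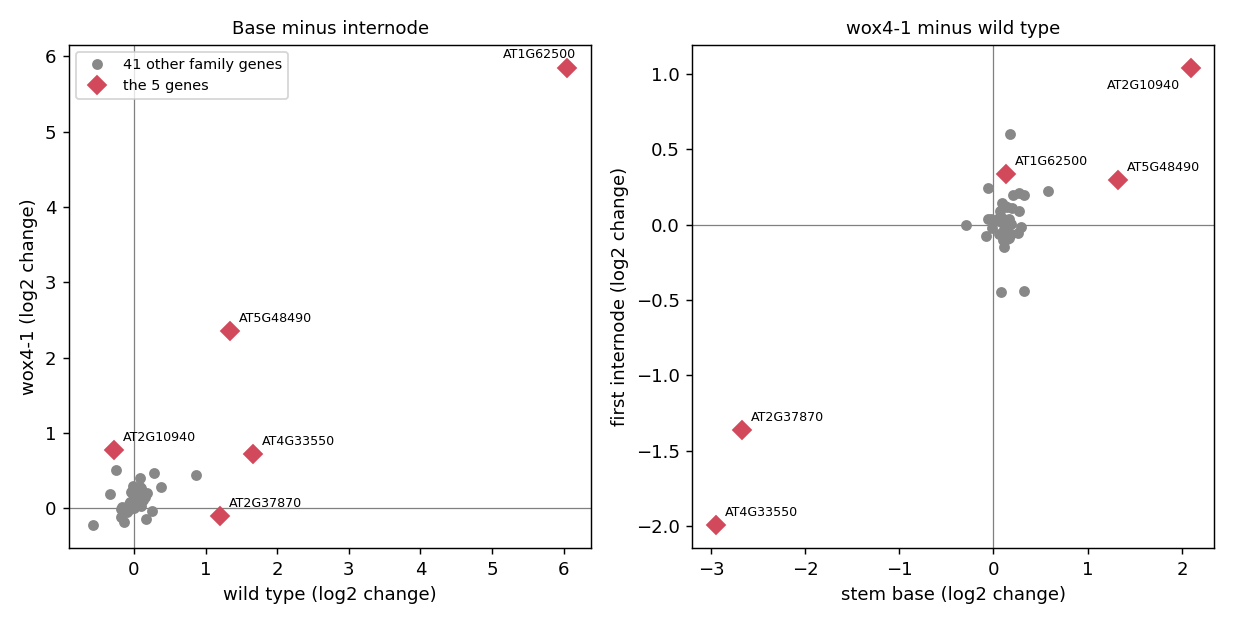
Differences of group means (log2) for the 41 other family genes (grey) and the 5 genes (red diamonds), with base minus internode in wild type (horizontal) against wox4-1 (vertical) on the left, and wox4-1 minus wild type at the base (horizontal) against the internode (vertical) on the right. The 41 genes lie between -0.57 and 0.87 on all axes, and each of the 5 genes lies outside this range on at least 1 axis. The 5 genes were chosen by their values on these arrays, so their place outside the range only describes that choice. Of the 41 genes, 15 were under the 25th percentile of all values on every array.

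Genes of the surfaces that lipid transfer proteins are known to serve were barely covered by named probe sets. Of 22 cuticle and wax genes 2 had a named probe set, and of 12 suberin genes none had. AT5G61590, called DEWAX, which encodes a repressor of wax synthesis, rose at the base by log2 1.00 in wild type (SE 0.28, limma adjusted p 0.0243) and by 1.16 in wox4-1 (SE 0.28, limma adjusted p 0.00924). WSD1, for a wax ester synthase, changed by 0.25 and 0.56, and neither change was called. Between genotypes WSD1 was higher in wox4-1 by 0.71 at the base (SE 0.20, limma adjusted p 0.0567) and by 0.40 in the internode (SE 0.20, limma adjusted p 0.664), neither of them called, while the average of both was called (0.56, SE 0.14, limma adjusted p 0.0349). No genotype effect on AT5G61590 was called (-0.11 to 0.05).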

How the data were processed

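Biotin-labelled aRNA from 12 stem pools was hybridised to Affymetrix ATH1 arrays. The authors deposited log2 values for 22810 probe sets, with RMA named in the submitters' processing notes; its version is not given in the sources used here. The 64 control probe sets were left out. Names came from the supplied platform table and a RefSeq gene table. By these names 13513 probe sets had 1 gene, and the other 9233 had no name or several genes. A gene without a named probe set is therefore not shown to be absent from the array.

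Group means were fitted to the 12 arrays in 1 limma model (limma 3.58.1 in R 4.3.3, lmFit and eBayes). P-values were adjusted by Benjamini-Hochberg over 22746 probe sets, and a change counts as called where the adjusted p is under 0.05. SE and 95% intervals are moderated. The fit was tested on simulated data. The number of arrays limits the precision.

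The 5 genes, the lists and the tests were chosen with earlier results of these data known. A comparison counts as used where the gene was among the 10 largest called changes of a direction with groups that do not overlap, together with the average and difference of the genotype effects. Named besides the 5 genes were the 3 most like each by Pearson r over the arrays, the most alike family gene, up to 4 called family genes per comparison of groups, and list genes measured by name. A second family list drawn from annotated gene names had 17 genes, of which none had a named probe set.

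The array titles give replicate numbers and state no pairing. In wild type the deviations of base and internode arrays of equal number correlated at r 0.29, 0.59 and 0.31. Arrays of unequal number there had r of -0.40 to 0.17. In the other pairs of groups r lay between -0.06 and 0.24 for equal numbers and between -0.24 and 0.16 for unequal numbers. Deviations within a group of 3 arrays depend on each other, and so do these r. The alternatives were median centring, a filter on dim probe sets, eBayes with trend or robust, the compared groups alone, arrays left out, a replicate block and a floor at the 25th percentile.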

Additional observations from a re-analysis of the deposited data

How the results depend on the processing

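Over 20 alternatives, and a replicate block of the wild-type arrays chosen after seeing the data, 793 of 833 recomputed values kept their direction and side of the threshold (counts: within 1.5 times). The changes of AT1G62500 along the stem (5.80 to 6.14 in wild type, 5.76 to 5.96 in wox4-1), of AT5G48490 along the stem (0.93 to 1.57 and 2.31 to 2.46) and of AT2G10940 between genotypes at the base (1.82 to 2.41) did so throughout. The causes of the changes below were not tested. AT2G10940 at the wox4-1 base over the internode became called at 0.87 with median centring, at 0.78 with trend, with the compared groups alone and without both wild-type replicate 2 arrays, and ranged from 0.60 to 1.09 over single arrays left out. AT4G33550 there was called at 0.72 with the compared groups alone. AT5G48490 was no longer called at the base (1.32 with the compared groups alone, 1.15 without both wild-type replicate 2 arrays) or on average (0.73 without them). Signs turned for AT2G37870 in wox4-1 along the stem (0.05 without wox4-1 internode replicate 2, range -0.26 to 0.05) and between genotypes in the internode (0.11 without wild type internode replicate 2 or both replicate 2 arrays, range -2.32 to 0.11). The difference of genotype effects turned for AT1G62500 with the floor (0.02) and for AT4G33550 without wild type base replicate 2 (0.34) or wild type internode replicate 3 (0.11), ranging from -2.73 to 0.34. Over single arrays left out, new calls arose in the ranges 0.80 to 1.43 (AT5G48490, difference), -4.03 to -1.75 (AT2G37870, base), 0.19 to 0.29 (AT1G62500, average), -3.30 to -1.58 (AT4G33550, average) and -2.70 to -1.28 (AT2G37870, average). Called family genes higher at the base numbered 1 to 2 in wild type and 3 to 5 in wox4-1 over single arrays left out, and 11 in wox4-1 with median centring. Lower calls in wild type numbered 1 with trend and with either replicate block, and 0 to 1 over single arrays. Higher calls between genotypes at the base numbered 2 with centring, 0 with the compared groups alone or without both replicate 2 arrays, and 0 to 1 over single arrays. In the internode they numbered 0 in both of those fits and 0 to 1 over single arrays, and on average 1 without both replicate 2 arrays. The replicate block left all calls of the 5 genes as they were, with 6.05 and 1.33 for AT1G62500 and AT5G48490 in wild type. Levels near the 25th percentile (log2 3.57 to 3.70 per array) are hardly told apart.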

Other observations

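Of the 10 genes next to the 5 genes in the RefSeq table (assembly TAIR10.1), 7 had a probe set with their name, and none of these 7 spanned over 1 log2 unit. AT1G62510, which follows AT1G62500 and is itself on the family list, lay between log2 2.93 and 3.80 on all arrays, and AT1G62490 before it between 3.02 and 3.42, whereas AT1G62500 spanned 3.32 to 9.68. AT4G33540 and AT4G33560, on either side of AT4G33550, lay between 5.75 and 6.32 and between 2.92 and 3.78. AT2G37880, after AT2G37870, lay between 4.40 and 4.82. AT5G48500, after AT5G48490, lay between 6.98 and 7.5, and AT2G10950, after AT2G10940, between 7.60 and 7.83. The other 3, AT2G10931, LCD1 and DIR1, a defence signalling gene of the family that precedes AT5G48490, were not analysed here.

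AT5G55450, the family gene on the list with the widest spread within a group, stood at log2 6.85, 5.50 and 7.31 in the wox4-1 internode and at 7.3, 7.5 and 6.18 in the wild type internode. Its low wox4-1 value is on replicate 2, the array whose actin and GAPDH controls stood apart.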
